A study of Homo sapiens with 4 samples.

Results

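The genes described here are 43 DNA replication and S phase genes, taken by name from a table of 58174 genes, and all 43 were found in it. RNA sequencing gave their levels in 2 human lung tumour lines, HCC827 and H1299, 48 h after transfection of an siRNA against CDH3 (siCDH3) or of a control siRNA (siCTR). HCC827 was derived from an adenocarcinoma and carries an EGFR exon deletion that activates the receptor, and H1299 came from the lymph node metastasis of a non-small cell tumour. The silenced gene, CDH3, codes for the adhesion molecule P-cadherin. The groups were siCDH3 H1299, siCTR H1299, siCDH3 HCC827 and siCTR HCC827, with 1 library each, so differences inside a line carry no replicate check and no p-value.

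A cell copies its genome once per cycle by loading the MCM2 to MCM7 helicase ring on origins in G1, with the origin recognition complex, CDC6 and CDT1, and by switching that ring on in S phase with CDC45 and the GINS complex. Primase and polymerase alpha then start each strand, the PCNA clamp and its RFC loader hold the copying polymerases on DNA, and FEN1 and LIG1 join the pieces of the lagging strand. Most of these genes are transcribed by E2F factors once RB is phosphorylated, so their mRNAs are widely read as a mark of proliferating cells, and tumour cell lines express them highly.

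RefSeq promoter windows (GRCh38.p14, 250 bases before to 50 bases after a transcription start) were available for 40 of the 43 genes, all but MCM4, MCM5 and GINS4. An E2F-type string, searched on both strands as TTTGGCGC, TTTGCCGC, TTTCGCGC or TTTCCCGC, was present in 24 of the 52 windows of these genes (46.2%), against 1164 of 35116 windows of all genes (3.31%). By gene, 23 of 40 members (57.5%) had a match, against 6.8% of the genes that reached 5 TPM (a length-scaled share of a library's transcripts) in at least 1 library and had a window. The CCAAT box, also searched on both strands, was in 57.7% of the members' windows and 34.6% of all windows. E2F and CCAAT letters overlapped in the windows of MCM7, and E2F strings on opposite strands overlapped each other in some windows, such as those of MCM2, MCM6 and TIPIN. A match is a string of letters and does not show that a factor bound there.

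The match nearest to a transcription start is shown for 10 genes, with 10 bases on each side and the match in capitals, because these include, among members with a match and past the limit of 5 TPM, the lowest ratios in H1299 (POLA1, GINS1) and in HCC827 (UHRF1, DTL), the highest (TIPIN), and others of the list. Each is written along the gene's own strand.
POLA1 (chrX:24693771-24693798, plus): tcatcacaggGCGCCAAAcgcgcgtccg
GINS1 (chr20:25407668-25407695, plus): gctttgttcgGCGCCAAAgcgcggagcg
UHRF1 (chr19:4909477-4909504, plus): ccgagttttcGCGGGAAAaaaatcagag
CLSPN (chr1:35769966-35769993, minus): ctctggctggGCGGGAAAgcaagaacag
DTL (chr1:212035730-212035757, plus): gtgacgtcagTTTGGCGCggagtttggc
MCM2 (chr3:127598403-127598430, plus): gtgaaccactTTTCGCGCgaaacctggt
MCM6 (chr2:135876512-135876539, minus): gtcaggtttgGCGCGAAAtctccagctc
PCNA (chr20:5126664-5126691, minus): agcgtcagggGCGGGAAAaggcgtgcgt
TIPIN (chr15:66356730-66356757, minus): cacggatttgGCGCCAAAcgctgcgggc
E2F1 (chr20:33686388-33686415, minus): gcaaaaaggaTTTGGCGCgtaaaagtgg

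Longer stretches upstream of the start are shown for 2 members, with E2F and CCAAT matches that lie wholly before the start in capitals. They were chosen because MCM6 holds 4 E2F strings, the most of any member, and CLSPN carries repeated CCAAT boxes, read as ATTGG on the gene's strand. In MCM6 (chr2:135876472-135876645, minus strand), 4 E2F strings form 2 overlapping pairs, 1 string on each strand, beside 2 CCAAT boxes. In CLSPN (chr1:35769979-35770147, minus strand), 3 CCAAT boxes precede the E2F string shown above. That string crosses the start, so the stretch ends inside it and its bases there are in lower case.
MCM6: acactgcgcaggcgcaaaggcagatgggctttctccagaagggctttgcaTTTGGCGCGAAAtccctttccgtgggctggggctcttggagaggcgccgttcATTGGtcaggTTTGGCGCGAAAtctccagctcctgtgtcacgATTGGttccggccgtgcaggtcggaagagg
CLSPN: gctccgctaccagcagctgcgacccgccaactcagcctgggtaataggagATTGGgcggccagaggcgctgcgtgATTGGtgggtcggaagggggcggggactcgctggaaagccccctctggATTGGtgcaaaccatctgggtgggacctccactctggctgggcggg

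The values are TPM, which divide reads by transcript length and scale each library to the same sum, so levels can be set side by side between genes, but the sequencing depth is unknown. CDH3 itself was at 78.8 TPM in siCDH3 HCC827, against 173 in siCTR HCC827, and at 0.169 TPM in siCDH3 H1299, against 1.21 in siCTR H1299, where it was already low. HCC827 expressed 10 of 10 epithelial markers at 5 TPM or more, whereas H1299 expressed 4 of 10, with EPCAM and KRT19 under 1 TPM. Fibroblast markers summed to 5.87 to 9.42 TPM per library and endothelial markers to 1.61 to 2.48 TPM, with EMCN at 0 in all 4 libraries. Hematopoietic markers summed to 125 to 146 TPM, nearly all of it CD68, which many carcinoma cells express, and the others together reached at most 5.21 TPM. The share of TPM held by protein-coding genes of the mitochondrial genome was 12.8% in siCDH3 H1299 and 10.1% in siCTR H1299, and 26.4% in siCDH3 HCC827 and 27.6% in siCTR HCC827.

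In both lines the replication genes as a group sat lower in the siCDH3 library, by a small amount. Their summed TPM was 931.6 in siCDH3 H1299, against 1081 in siCTR H1299, and 827.1 in siCDH3 HCC827, against 906.8 in siCTR HCC827. The median gene was at 15.4 TPM in siCDH3 H1299 and 18.4 in siCTR H1299, and at 15.2 TPM in siCDH3 HCC827 and 16.9 in siCTR HCC827. Because the list spans genes near 1 TPM to genes near 100 TPM, each gene was also compared with itself, as the log2 ratio of TPM + 1, siCDH3 over siCTR. Only genes with at least 5 TPM in at least 1 library of the line were counted, which left 40 members in H1299 (without MCM10, GINS4 and E2F2) and 37 in HCC827 (also without POLA1, CHAF1B and CLSPN). In bulk RNA, fewer S phase cells and less RNA per cell cannot be told apart.

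**Figure D1:**
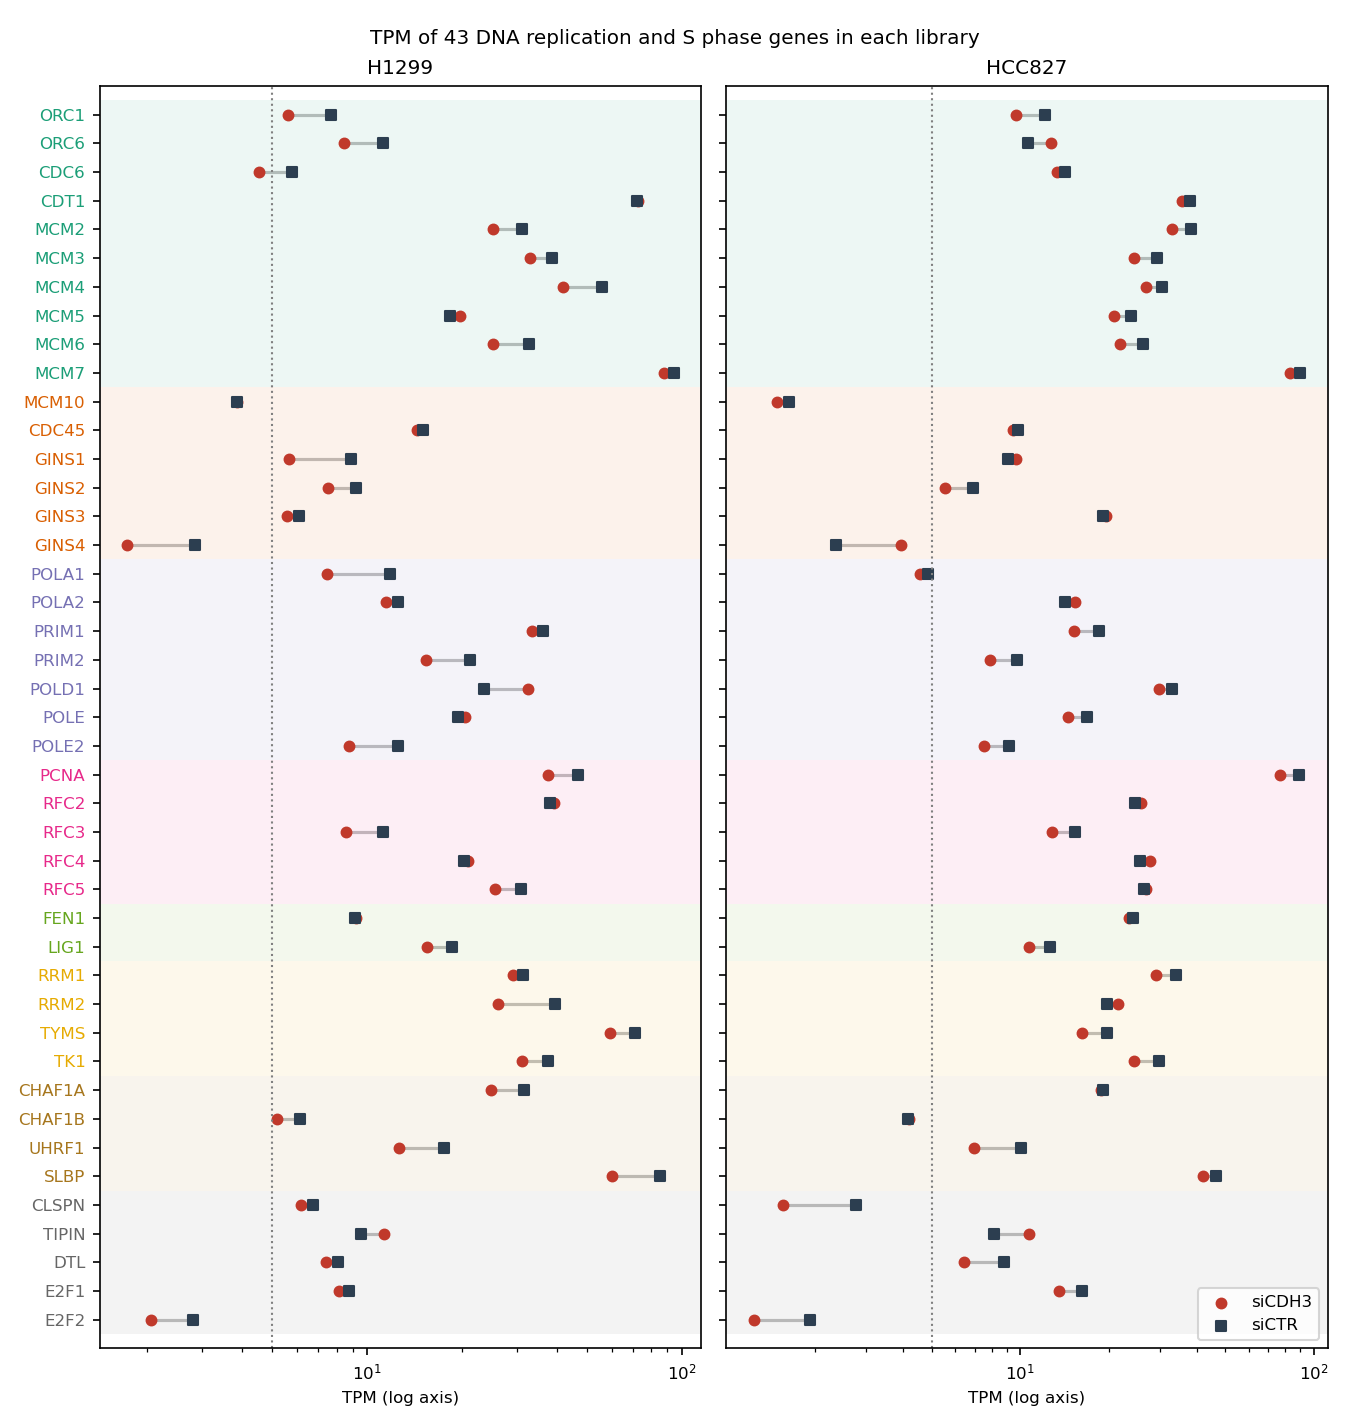
TPM (log axis) of each of the 43 genes in the siCDH3 library (red circles) and the siCTR library (dark squares) of H1299 (left) and HCC827 (right), with rows coloured by role and the 5 TPM limit as a dotted line. MCM7 reached 87.9 TPM in siCDH3 H1299 and 94.2 in siCTR H1299, while MCM10 and E2F2 stayed under 5 TPM in every library.

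In H1299, 27 of 40 members (67.5%) had a ratio below the median of all genes, where 50% of the 11622 genes tested do so by definition. Their median log2 ratio was -0.25, against -0.11 for all genes, which is -0.15 relative to all genes. On the TPM + 1 scale, 13 members (32.5%) were at least 20% lower, where 23.1% of all genes were, and 1 member, POLD1, was at least 25% higher, where 8.8% of all genes were. With the median of all genes set to 0, 7 members were at least 20% lower (17.5%, against 14.6% of all genes) and POLD1 and TIPIN at least 25% higher (5% of the members, against 14% of all genes). No member was 2-fold lower or 2-fold higher, while 1.58% of all genes were 2-fold lower and 0.878% 2-fold higher.

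In HCC827, 30 of 37 members (81.1%) lay below the median of all genes, again against 50% of the 11043 genes tested. With TPM recomputed without mitochondrially encoded genes, the counts were 28 of 40 in H1299 and 30 of 37 in HCC827. The members' median log2 ratio was -0.18, against 0.03 for all genes, which is -0.21 relative to all genes. The sizes were small: 2 members (5.41%), UHRF1 and DTL, were at least 20% lower, a share no higher than the 7.15% of all genes, and TIPIN alone was at least 25% higher, where 9.96% of all genes were. The middle 50% of the members lay between -0.25 and -0.02, a band that ends below the median of all genes. No member was past 2-fold in either direction, where 0.833% of all genes were 2-fold lower and 1.01% 2-fold higher.

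The ratios are given below by role, each relative to the median of all genes of its line, which removes the shift of -0.11 in H1299 and of 0.03 in HCC827. Of the 10 origin licensing genes, 7 lay below that median in H1299 and 9 in HCC827. ORC1, the ATP-binding subunit that marks origins, was at 5.61 TPM in siCDH3 H1299, against 7.66 in siCTR H1299, and at 9.71 TPM in siCDH3 HCC827, against 12.2 in siCTR HCC827, or -0.28 and -0.33 relative to all genes. The siCDH3 value was the lower in both lines. ORC6, another subunit of the same complex, was at 8.44 TPM in siCDH3 H1299 and 11.2 in siCTR H1299, but at 12.7 TPM in siCDH3 HCC827 and 10.6 in siCTR HCC827. Its ratio had opposite signs in the lines, -0.26 in H1299 and 0.21 in HCC827. Of the helicase loaders, CDC6 was at 4.54 TPM in siCDH3 H1299 and 5.76 in siCTR H1299, and at 13.4 TPM in siCDH3 HCC827 and 14.2 in siCTR HCC827. CDT1 was nearly level in H1299, at 72.5 TPM in siCDH3 and 72 in siCTR, and was at 35.7 TPM in siCDH3 HCC827 and 37.8 in siCTR HCC827.

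The MCM2 to MCM7 genes, which encode the ring of the replicative helicase, summed to 233 TPM in siCDH3 H1299, against 271 in siCTR H1299, and to 210 TPM in siCDH3 HCC827, against 238 in siCTR HCC827. Although the proteins form a ring with equal copies, their mRNAs did not have equal levels: MCM7 was 4.47 and 5.13 times MCM5 in siCDH3 and siCTR H1299, and 3.95 and 3.78 times MCM5 in siCDH3 and siCTR HCC827. MCM4 was at 42.0 TPM in siCDH3 H1299, against 55.6 in siCTR H1299, and at 26.8 TPM in siCDH3 HCC827, against 30.4 in siCTR HCC827. MCM6 was at 25.2 TPM in siCDH3 H1299, against 32.6 in siCTR H1299, and at 21.9 TPM in siCDH3 HCC827, against 26.2 in siCTR HCC827. MCM3 was at 33 TPM in siCDH3 H1299, against 38.8 in siCTR H1299, and at 24.5 TPM in siCDH3 HCC827, against 29.3 in siCTR HCC827. These subunits and MCM2 (25.2 TPM in siCDH3 H1299 and 31.1 in siCTR H1299, 32.9 TPM in siCDH3 HCC827 and 38.2 in siCTR HCC827) lay below the median of all genes in both lines. MCM5 and MCM7 did so in HCC827 only, MCM5 with 19.7 TPM in siCDH3 H1299 and 18.4 in siCTR H1299, and 20.9 TPM in siCDH3 HCC827 and 23.8 in siCTR HCC827, and MCM7 with ratios of 0.01 in H1299 and -0.15 in HCC827, relative to all genes.

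**Figure D2:**
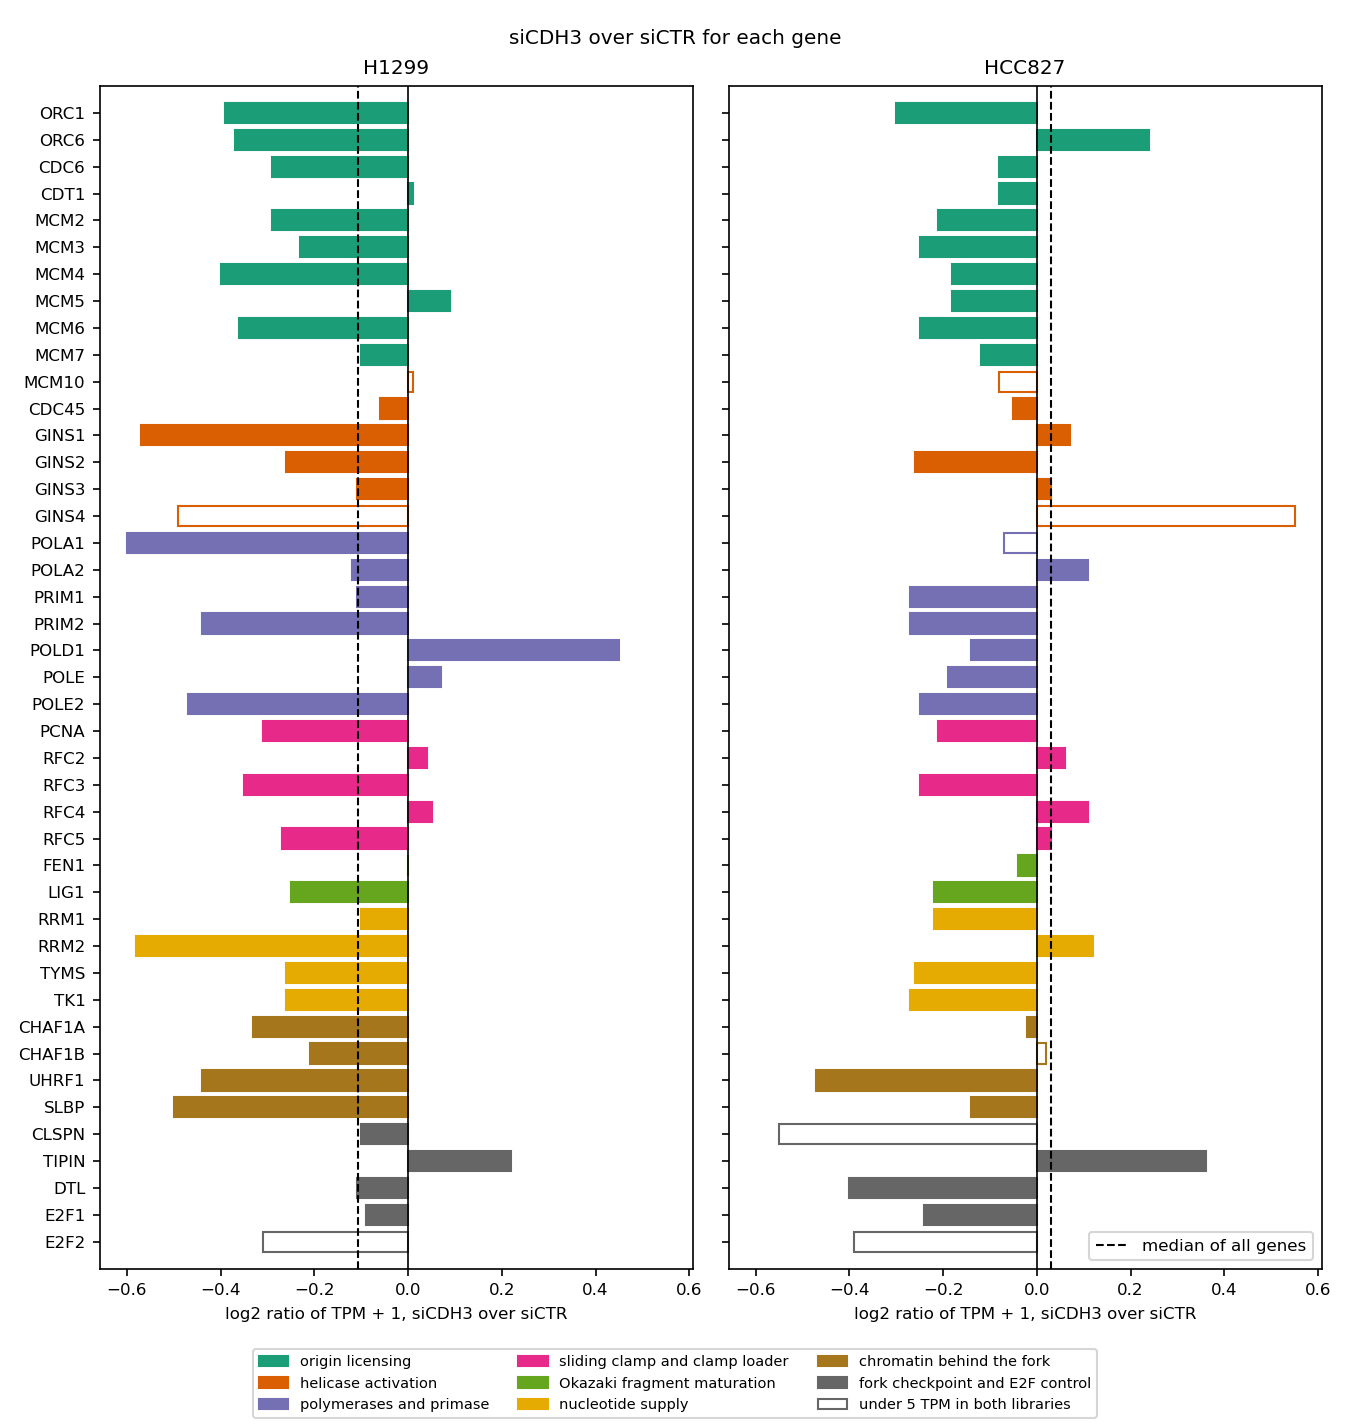
Log2 ratio of TPM + 1, siCDH3 over siCTR, for each of the 43 genes in H1299 (left) and HCC827 (right), coloured by role; open bars mark genes under 5 TPM in both libraries of the line and the dashed line is the median of all genes. Of the filled bars, 27 of 40 in H1299 and 30 of 37 in HCC827 end to the left of the dashed line.

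Among the tested genes that switch the helicase on, GINS1 had the widest gap between the lines. It was at 5.66 TPM in siCDH3 H1299, against 8.89 in siCTR H1299, and at 9.65 TPM in siCDH3 HCC827, against 9.12 in siCTR HCC827, or -0.46 and 0.04 relative to all genes. GINS2, a partner subunit in the same complex, was at 7.54 TPM in siCDH3 H1299 and 9.20 in siCTR H1299, and at 5.57 TPM in siCDH3 HCC827 and 6.89 in siCTR HCC827, below its control in each line. CDC45, which joins GINS on the ring, stayed close to its control, with 14.4 TPM in siCDH3 H1299 and 15.1 in siCTR H1299, and 9.49 TPM in siCDH3 HCC827 and 9.84 in siCTR HCC827. GINS3, at 5.56 TPM in siCDH3 H1299 and 6.09 in siCTR H1299, and 19.6 TPM in siCDH3 HCC827 and 19.2 in siCTR HCC827, lay within 0.01 of the median of all genes in both lines. GINS4, under the 5 TPM limit, was at 1.73 TPM in siCDH3 H1299 and 2.83 in siCTR H1299, and at 3.92 TPM in siCDH3 HCC827 and 2.36 in siCTR HCC827, and MCM10, the initiation factor that helps the ring open, was also under it, between 1.49 and 3.87 TPM.

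The catalytic subunits of the replicative polymerases held both ends of the list in H1299. POLA1 (ENSG00000101868), the catalytic subunit of polymerase alpha that extends the RNA primer, had the lowest ratio of all members in H1299, with 7.44 TPM in siCDH3 H1299 and 11.8 in siCTR H1299 (-0.49 relative to all genes). In HCC827, where it was under the limit, it was at 4.56 TPM in the siCDH3 library and 4.85 in the siCTR library. POLD1 (ENSG00000062822), the catalytic subunit of polymerase delta on the lagging strand, had the highest ratio in H1299, with 32.5 TPM in siCDH3 H1299 and 23.5 in siCTR H1299 (0.56 relative to all genes). In HCC827 it was at 29.8 TPM in the siCDH3 library and 32.9 in the siCTR library. The level of POLD1 was thus 4.37 times that of POLA1 in siCDH3 H1299 and 2 times in siCTR H1299, against 6.54 times in siCDH3 HCC827 and 6.78 times in siCTR HCC827.

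POLE2, an accessory subunit of polymerase epsilon, was at 8.74 TPM in siCDH3 H1299, against 12.5 in siCTR H1299, and at 7.55 TPM in siCDH3 HCC827, against 9.15 in siCTR HCC827. The catalytic subunit POLE was at 20.4 TPM in siCDH3 H1299 and 19.4 in siCTR H1299, and at 14.6 TPM in siCDH3 HCC827 and 16.9 in siCTR HCC827, with ratios of 0.18 in H1299 and -0.22 in HCC827, relative to all genes. PRIM2, the large primase subunit, was at 15.4 TPM in siCDH3 H1299, against 21.2 in siCTR H1299, and at 7.92 TPM in siCDH3 HCC827, against 9.77 in siCTR HCC827, below its control in each line. PRIM1, the catalytic primase subunit, was at 15.2 TPM in siCDH3 HCC827 and 18.6 in siCTR HCC827, and at 33.4 TPM in siCDH3 H1299 and 36.1 in siCTR H1299, where its ratio equalled that of all genes within 0.01. POLA2 was at 11.5 TPM in siCDH3 H1299 and 12.5 in siCTR H1299, and at 15.4 TPM in siCDH3 HCC827 and 14.2 in siCTR HCC827. PRIM1, POLA2, POLD1, RRM2, FEN1 and CHAF1B share exon bases on the same strand with another protein-coding gene in GENCODE release 29, which can make their TPM uncertain. The partners of CHAF1B (MORC3), FEN1 (FADS2) and PRIM1 (NACA) had reads in every library, whereas the partner of POLD1, AC020909.1, was at 0 TPM in all 4 libraries. The partners of POLA2 (AP000944.2) and RRM2 (AC007240.1), and a further partner of PRIM1 (AC117378.1), had no entry, by identifier, among the 58174 genes. TYMS, MCM7, FEN1, RFC5, PRIM1 and other members overlap exons of genes on the opposite strand, and since strandedness is not stated, reads of such pairs cannot be told apart.

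PCNA, the sliding clamp, was at 37.6 TPM in siCDH3 H1299, against 46.9 in siCTR H1299, and at 76.6 TPM in siCDH3 HCC827, against 89.0 in siCTR HCC827. It lay -0.20 and -0.24 relative to all genes. The clamp loader subunits divided: RFC3 was at 8.59 TPM in siCDH3 H1299 and 11.2 in siCTR H1299, and at 12.8 TPM in siCDH3 HCC827 and 15.4 in siCTR HCC827, below its control in each line. RFC2 was at 39.3 TPM in siCDH3 H1299 and 38.1 in siCTR H1299, and at 25.8 TPM in siCDH3 HCC827 and 24.7 in siCTR HCC827. RFC4 was at 20.9 TPM in siCDH3 H1299 and 20.3 in siCTR H1299, and at 27.7 TPM in siCDH3 HCC827 and 25.5 in siCTR HCC827. Both lay above the median of all genes in each line, by 0.15 in H1299 and by 0.03 (RFC2) and 0.08 (RFC4) in HCC827. RFC5 was at 25.4 TPM in siCDH3 H1299 and 30.8 in siCTR H1299, and at 26.9 TPM in siCDH3 HCC827 and 26.4 in siCTR HCC827. Of the genes that finish the lagging strand, the ligase LIG1 was at 15.5 TPM in siCDH3 H1299 and 18.6 in siCTR H1299, and at 10.7 TPM in siCDH3 HCC827 and 12.6 in siCTR HCC827. The flap nuclease FEN1 was at 9.20 TPM in siCDH3 H1299 and 9.18 in siCTR H1299, and at 23.5 TPM in siCDH3 HCC827 and 24.2 in siCTR HCC827.

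Of the 4 enzymes that supply nucleotides, 3 lay below the median of all genes in each line. TYMS, which makes thymidylate and is the target of fluorouracil, was at 59.0 TPM in siCDH3 H1299, against 71.0 in siCTR H1299, and at 16.3 TPM in siCDH3 HCC827, against 19.7 in siCTR HCC827. That left 83.1% of the control level in H1299 and 82.6% in HCC827. TK1, which salvages thymidine, was left at 82.9% in H1299 (31.1 TPM in siCDH3 and 37.5 in siCTR) and at 82.3% in HCC827 (24.5 TPM in siCDH3 and 29.7 in siCTR). RRM2, the S phase subunit of ribonucleotide reductase, was at 26 TPM in siCDH3 H1299, against 39.5 in siCTR H1299, but at 21.5 TPM in siCDH3 HCC827, against 19.8 in siCTR HCC827. RRM1, the large subunit of that enzyme, was at 29.1 TPM in siCDH3 H1299 and 31.3 in siCTR H1299, and at 29 TPM in siCDH3 HCC827 and 33.9 in siCTR HCC827. The level of RRM1 was 1.12 times that of RRM2 in siCDH3 H1299 and 0.793 times in siCTR H1299, and 1.35 times in siCDH3 HCC827 and 1.71 times in siCTR HCC827.

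All 4 genes grouped here under chromatin behind the fork, with the histone mRNA binder SLBP among them, lay below the median of all genes in H1299. So did the 3 that passed the limit in HCC827. UHRF1 (ENSG00000276043), which brings the maintenance DNA methyltransferase to newly copied DNA, was at 12.6 TPM in siCDH3 H1299, against 17.5 in siCTR H1299, and at 6.97 TPM in siCDH3 HCC827, against 10.1 in siCTR HCC827. It had the lowest ratio in HCC827 among members past the 5 TPM limit, and its TPM was 72.3% of the control level in H1299 and 69.3% in HCC827. By plain TPM, ORC1 was also at least 20% lower in both lines, with 73.2% of the control level in H1299 and 79.5% in HCC827. On the TPM + 1 scale it missed that rule in HCC827. E2F2, under the 5 TPM limit, had 73.4% in H1299 and 64.2% in HCC827 by plain TPM. The share of all genes at least 20% lower by plain TPM was not counted. SLBP, which binds the stem-loop of histone mRNAs, was at 60.1 TPM in siCDH3 H1299, against 85.4 in siCTR H1299, and at 41.9 TPM in siCDH3 HCC827, against 46.3 in siCTR HCC827. The large subunit gene of chromatin assembly factor 1, CHAF1A, was at 24.8 TPM in siCDH3 H1299 and 31.4 in siCTR H1299, but at 18.9 TPM in siCDH3 HCC827 and 19.2 in siCTR HCC827. Its partner CHAF1B was at 5.16 TPM in siCDH3 H1299 and 6.12 in siCTR H1299, and under the limit in HCC827, at 4.2 TPM in siCDH3 and 4.14 in siCTR.

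Of the genes of the fork checkpoint and of E2F control, 1 of 4 tested lay below the median of all genes in H1299 and 2 of 3 in HCC827. TIPIN (ENSG00000075131), the partner of TIMELESS in the fork protection complex, was higher in both lines, with 11.3 TPM in siCDH3 H1299 and 9.56 in siCTR H1299, and 10.7 TPM in siCDH3 HCC827 and 8.17 in siCTR HCC827 (0.33 relative to all genes in each). It shares 579 exon bases with the pseudogene RPL9P25, which was at 2.25 TPM or less in every library. DTL, the adaptor that marks CDT1 for destruction in S phase, was at 6.45 TPM in siCDH3 HCC827, against 8.82 in siCTR HCC827, and followed all genes in H1299, with 7.40 TPM in siCDH3 and 8.07 in siCTR. CLSPN, the claspin gene that carries the checkpoint signal to CHEK1, was at 1.56 TPM in siCDH3 HCC827 and 2.76 in siCTR HCC827, both under the limit, and at 6.17 TPM in siCDH3 H1299 and 6.71 in siCTR H1299. E2F1 was at 13.6 TPM in siCDH3 HCC827 and 16.3 in siCTR HCC827, and at 8.17 TPM in siCDH3 H1299 and 8.75 in siCTR H1299. E2F2, under the limit throughout, was at 2.06 TPM in siCDH3 H1299 and 2.8 in siCTR H1299, and at 1.24 TPM in siCDH3 HCC827 and 1.93 in siCTR HCC827.

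The 2 lines share no library, so the response of each gene could be set side by side. Of the 37 members tested in both lines, 21 lay below the median of all genes in each line, which is 56.8%, against 26.9% of the 9724 genes tested in both. RFC2, RFC4 and TIPIN lay above it in each, 4 were below in H1299 only, and 9 in HCC827 only. On the TPM + 1 scale, 1 member, UHRF1, was at least 20% lower in both, which is 2.7% of the members, against 2.2% of all genes. With a pseudocount of 0.1, ORC1 also passed, at -0.44 on the log2 scale in H1299 and -0.33 in HCC827. The share of all genes that passed in both lines at that pseudocount was not counted. In single lines, 24.9% of all genes in H1299 and 8.01% in HCC827 were at least 20% lower at that pseudocount. Across the 37 members Pearson's r between the lines was 0.216 and Spearman's rho 0.217, and across all 9724 genes they were 0.127 and 0.0928; members share libraries and are not independent.

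**Figure D3:**
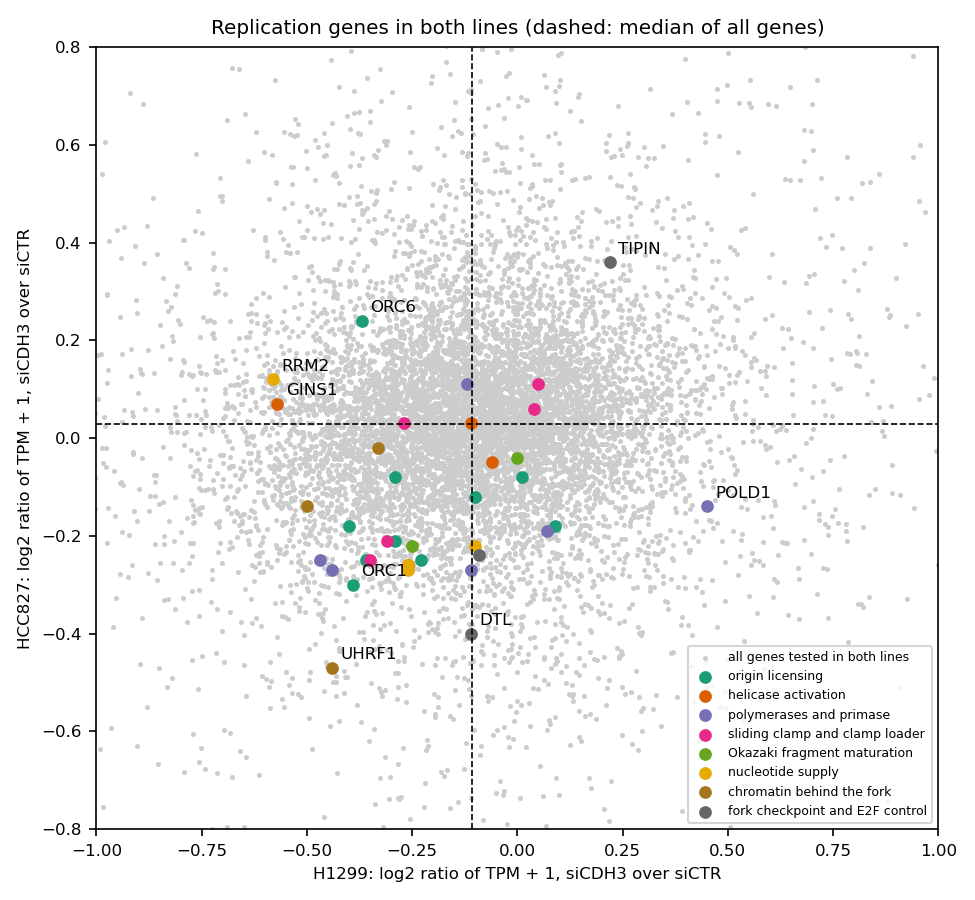
Log2 ratio of TPM + 1, siCDH3 over siCTR, in H1299 (x axis) and HCC827 (y axis) for the 37 members tested in both lines (coloured by role) and for all genes tested in both (grey), with dashed lines at the median of all genes in each line. The lower left field holds 21 members, UHRF1 lowest, and TIPIN lies in the upper right.

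The fit that treats the cell lines as the replicates did not separate any member from zero. limma on log2(TPM + 1) of 12941 genes, with the line as a block and 1 residual degree of freedom per gene, called 1 gene at an adjusted p under 0.05 (0.00773% of those tested), and 0 of 40 members. The smallest adjusted p of a member was 0.95. At an unadjusted p under 0.05, 1 member was lower, UHRF1, which is 2.5% of the members tested, against 2.6% of all genes. Its limma log2 fold change was -0.46 with a standard error of 0.150, lower in 2 of 2 lines, with an unadjusted p of 0.0313 and a Benjamini-Hochberg adjusted p of 0.95. limma draws each gene's variance toward a value shared by all genes, which gave 4.71 degrees of freedom in total. The standard errors of GINS2, TYMS and TK1 were also 0.150, so this value is not a spread measured for UHRF1 alone. The members' median limma fold change was -0.21, against -0.03 for all genes. With the block, each fold change is the mean of the gene's log2 ratios in the 2 lines, so this median adds nothing independent of those ratios.

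More members were past 2-fold between the lines than between the siRNAs, which also held for all genes. In each direction, the members' share past 2-fold between the lines was below that of all genes. Relative to the median of all genes, 4 of 40 members were at least 2-fold higher in siCDH3 HCC827 than in siCDH3 H1299 (18.9% of all genes were) and 2 at least 2-fold lower (19.1% of all genes). Between the siCTR libraries the counts were 6 higher (19.2% of all genes) and 1 lower (18.3% of all genes). GINS3 had the largest excess, at 19.6 TPM in siCDH3 HCC827 against 5.56 in siCDH3 H1299, and 19.2 TPM in siCTR HCC827 against 6.09 in siCTR H1299. FEN1, CDC6 and PCNA were also past 2-fold higher in HCC827 with either siRNA, and ORC1 and E2F1 between the siCTR libraries. TYMS was the member furthest below in HCC827, at 16.3 TPM in siCDH3 HCC827 against 59.0 in siCDH3 H1299, and 19.7 TPM in siCTR HCC827 against 71.0 in siCTR H1299. CLSPN joined it between the siCDH3 libraries.

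Other genes of the pathway, in a list of 44 that excludes the members, were read the same way. In H1299, 28 of 43 tested were below the median of all genes and the list's median was -0.11 relative to all genes. Of these genes, 11 were at least 20% lower (25.6%, against 23.1% of all genes) and 2 at least 25% higher (8.8% of all genes were). In HCC827, 28 of 38 were below, with a median of -0.09 relative to all genes. There, 2 were at least 20% lower (5.26%, against 7.15% of all genes) and 2 at least 25% higher (9.96% of all genes were). DBF4, the activator of the origin-firing kinase, had a log2 ratio of -0.73 in H1299, with 6.47 TPM in siCDH3 and 11.4 in siCTR, and the deoxycytidine kinase gene DCK -0.72, with 14.7 TPM in siCDH3 and 25 in siCTR. POLD3, an accessory subunit of polymerase delta, was the highest in H1299, at 0.54. In HCC827, CDCA7 was at 10.5 TPM in siCDH3 and 19.2 in siCTR (-0.81). DONSON, which helps to assemble the active helicase, was higher there, at 16.8 TPM in siCDH3 and 10.6 in siCTR (0.62).

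Of the E2F and RB network, 13 of 17 genes tested in H1299 and 11 of 17 in HCC827 were below the median of all genes, with list medians of -0.16 and -0.08 relative to all genes. E2F3 was at 7.65 TPM in siCDH3 H1299, against 13.0 in siCTR H1299, and at 4.98 TPM in siCDH3 HCC827, against 7.21 in siCTR HCC827. RB1, which restrains E2F factors, was at 26.1 TPM in siCDH3 H1299 and 41.5 in siCTR H1299, and at 11.6 TPM in siCDH3 HCC827 and 12.2 in siCTR HCC827. The CDK inhibitor gene CDKN1A, which holds cells in G1, named here after its value was seen, was at 79.7 TPM in siCDH3 H1299 and 104 in siCTR H1299, and at 26.7 TPM in siCDH3 HCC827 and 26 in siCTR HCC827. Mitosis and G2/M genes gave 18 of 36 below the median of all genes in H1299 (-0.01 relative to all genes) and 33 of 36 in HCC827 (-0.16). The replication genes had -0.15 in H1299 and -0.21 in HCC827 on the same scale, and the difference between the lists was not tested.

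**Figure D4:**
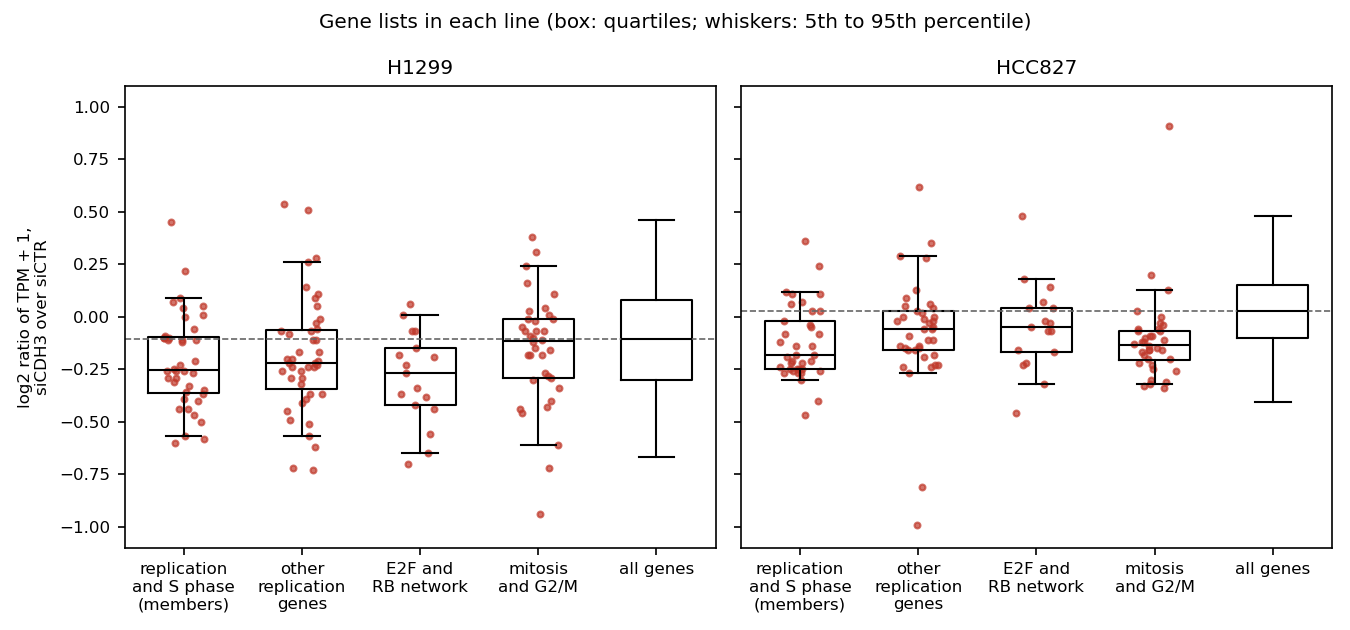
Log2 ratio of TPM + 1, siCDH3 over siCTR, for the members, 3 other gene lists and all genes in H1299 (left) and HCC827 (right); points are genes, boxes are quartiles, whiskers run from the 5th to the 95th percentile and the dashed line is the median of all genes. The members' median is -0.25 in H1299 and -0.18 in HCC827, and the mitosis list sits on the dashed line in H1299 and below it in HCC827.

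The ratio moved with base composition in H1299. Across all 11610 genes with a known transcript, Pearson's r of the log2 ratio with GC content was 0.312 in H1299 (Spearman's rho 0.406), and across the 40 members it was 0.402 (0.349), while in HCC827 it was -0.000859 across all genes and -0.129 across 37 members. Within H1299, 16 of the 20 members below the members' median GC content of 48.9% lay below the median of all genes, against 11 of the 20 at or above it. POLD1, the highest, has a transcript GC content of 65.0%, and POLA1, the lowest, 42.9%, although TIPIN (41.3%) lies high and UHRF1 (54.6%) low. A fit on the length and GC content of transcripts was then subtracted, which took 11.6% of the variance in H1299 and 0.275% in HCC827. After it, 28 of 40 members in H1299 and 30 of 37 in HCC827 lay below the median of all genes, and POLD1 was no longer 25% higher. The members' median relative to all genes was -0.11 after the fit and -0.15 before it in H1299, and -0.22 and -0.21 in HCC827.

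**Figure D5:**
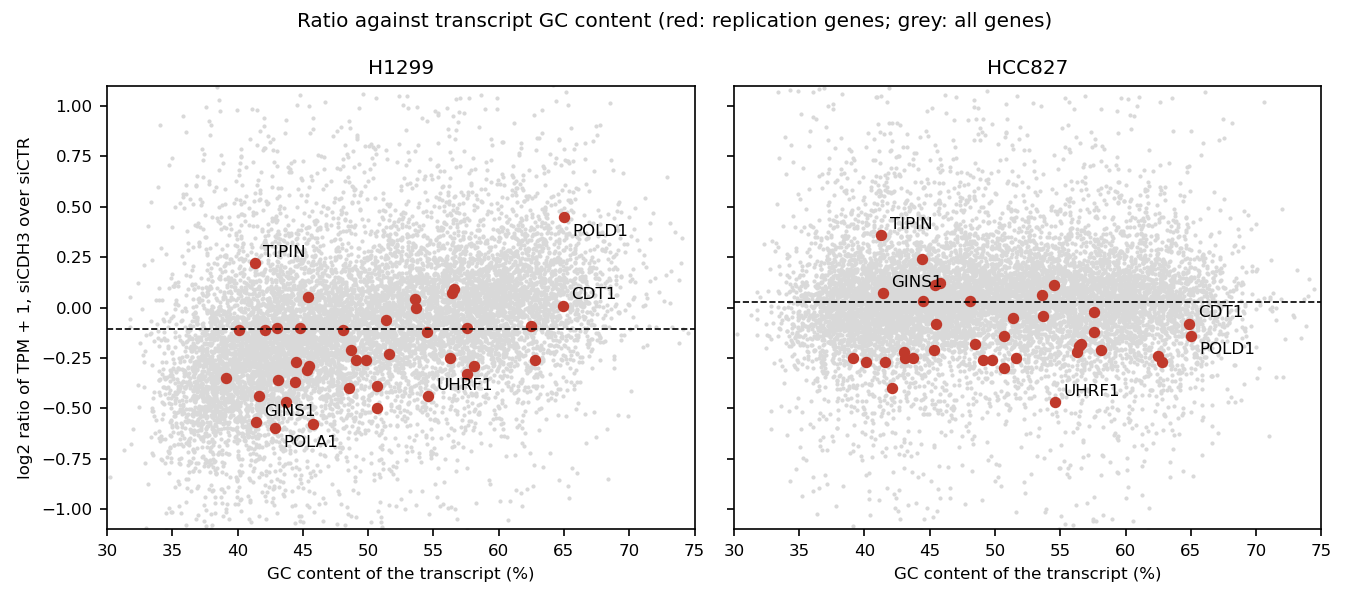
Log2 ratio of TPM + 1, siCDH3 over siCTR, against the GC content of each gene's transcript (percent) in H1299 (left) and HCC827 (right); members are red, all genes grey and the dashed line is the median of all genes. In H1299 the cloud tilts upward from POLA1 and GINS1 to POLD1, with r = 0.402 across the members, and in HCC827 it is flat.

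Members with and without an E2F match in the promoter window were set side by side as a description. In HCC827 the 20 tested members with a match had a median log2 ratio of -0.24 relative to all genes, and the 15 with a window and no match -0.08. In H1299 the medians were -0.15 for 22 members with a match and -0.13 for 16 without. The 556 tested genes outside the list with the same match in HCC827 and the 586 in H1299 had medians equal to that of all genes within 0.01. Among members past the 5 TPM limit in HCC827, TIPIN, with a match on each strand, was the highest, and UHRF1 and DTL, each with a match, were the lowest.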

How the data were processed

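RNA was sequenced in 4 libraries. The table deposited by the authors holds 1 TPM column for each, matched to its library by the labels. The build hg19 is named in the submitters' processing notes. Not given in the sources used here are the aligner, counting tool, strandedness and read depth. TPM keeps no depth, so no counting interval can be given. Log2 ratios of TPM + 1 were taken within each line, a pseudocount that understates changes of low genes. limma 3.58.1 (R 4.3.3, Benjamini-Hochberg adjustment) was fitted over all genes with the line as a block, a pairing that the labels give. A trial on simulated data used changes far larger than those of the members. It therefore does not show whether changes as small as theirs would be found. With 1 library per group, the spread between replicate cultures could not be measured. The limma p-values rest only on how far the siCDH3 over siCTR log2 ratio differed between the lines. That spread was drawn toward a value shared by all genes. Other steps used Python 3.11.15. Length, GC content and shared exons came from GENCODE release 29, by the longest protein-coding transcript of each gene, matched by identifier; promoter windows came from RefSeq on GRCh38.p14. Members, lists and rules were chosen with earlier results of these data known. Any member could be named, with values for the 12 lowest and 6 highest ratios per line and up to 3 members per role, and from each other list up to 4 genes per line with the largest ratios; 1 such gene is not reported here. Alternatives covered pseudocounts, filters, scaling, base composition, shared exons, the block and left-out libraries.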

Additional observations from a re-analysis of the deposited data

Results flagged for a closer look

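In 4 members the siCDH3 library lay on opposite sides of the siCTR library in the 2 lines, with at least 1 line at least 20% lower or 25% higher on the TPM + 1 scale. All are log2 ratios relative to the median of all genes. ORC6 was at -0.26 in H1299 and 0.21 in HCC827, GINS1 at -0.46 and 0.04, RRM2 at -0.48 and 0.09, and POLD1 at 0.56 and -0.17. With 1 library per group these differences between the lines were not tested. The share of all genes that meet the same rule was not counted, so the 4 cannot be called particular to replication genes. In H1299 alone, 23.1% of all genes were at least 20% lower and 8.8% at least 25% higher. POLD1 and RRM2 share exon bases with another protein-coding gene, which was at 0 TPM in all 4 libraries for POLD1. For RRM2 that gene had no entry, by identifier, among the 58174 genes.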

How the results depend on the processing

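The numbers of members under the all-gene median (27 of 40 in H1299, 30 of 37 in HCC827) stayed within 1.5 times under all alternatives but a filter at TPM 20, which leaves fewer genes: 15 of 20 and 14 of 17. TPM recomputed without mitochondrially encoded genes gave 28 and 30. The members' median stayed below that of all genes within each line in every setting. With no filter it was -0.26 relative to all genes in H1299. The reference there was all 58174 genes, of which 26.9% lay below their median, so this value is unlike the -0.15 under the filter. Counts at 20% lower or 25% higher moved more. In H1299, 13 lower became 8 with a pseudocount of 5 (20%, against 16.7% of all genes) and 6 with a filter at TPM 20 (30%, against 20.9%). The count was 7 with the median of all genes set to 0 (17.5%, against 14.6%) and 5 with quantile normalization (12.5%, against 14.1% of all genes). The 1 higher became 2 with the median set to 0 or quantile normalization (5%, against 14% of all genes in each). The count higher was 0 with the length and GC trend removed (7.4% of all genes) or without members that share exons (8.8%). In HCC827, 2 lower and 1 higher became 1 and 0 with a pseudocount of 5 (lower: 2.7%, against 4.94%, higher: 6.82% of all genes). They became 4 and 2 with a filter at TPM 1 or none (lower: 9.3%, against 9.97% and 4.16% of all genes). The 2 higher were 4.65% of the members there, against 11.9% and 4.77% of all genes. With a filter at TPM 20 the counts were 0 and 0, against 6.21% and 9.04% of all genes. The causes were not tested. In limma no member passed in any setting. With no replicate block, which ignores the pairing by line, 0 of 40 members were lower at an unadjusted p under 0.05, against 0.0927% of all genes. A filter at TPM 20 also gave 0, of 22 members, against 2.64% of all genes. With no filter 10 of 43 were lower at that p, against 1.79% of all genes. That share is over all 58174 genes, of which only 12941 reached 5 TPM in at least 1 library. It is therefore unlike the shares under a filter. With a filter at TPM 1, 1 of 43 members was lower at that p, against 2.37% of all genes. Leaving out each library, which needs a fit without the block and mixes the lines with the siRNAs, gave members' medians of -0.22 to -0.00 relative to all genes. Between lines, members at least 2-fold lower in HCC827 were 2 with the siCDH3 libraries and 1 with the siCTR libraries. Of the single-gene values, 343 of 374 in H1299 and 339 of 345 in HCC827 kept their side of the rule, and none that was past it changed direction.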
